A study of Gallus gallus with 3 samples.

Results

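The cells described here are the PAX7+ progenitors of the chicken forelimb at embryonic day 10 (E10) and embryonic day 6 (E6). A cell was a member when it held at least 1 PAX7 UMI (a unique molecular identifier, 1 counted mRNA molecule) and 0 UMIs of MYOG. The MYOG limit left out cells in which this gene of terminal differentiation was detected. Cells whose MYOG RNA went undetected could still enter. The rule gave 2161 of 25507 cells at E10 and 188 of 3929 cells at E6, or 2349 of the 34604 cells kept over the 3 stages of the series. Members made up 8.47% of the E10 cells (8.13 to 8.82%) and 4.78% of the E6 cells (4.14 to 5.50%), with exact 95% binomial intervals. Whole forelimbs were dissociated with collagenase and by mechanical means, untreated and with no genotype or sex given, and the cells of 3 E10 embryos and of 3 E6 embryos were pooled into 1 droplet library per stage. Embryos cannot be told apart within a pool, so there is no replicate, no test and no p-value: every interval below covers counting error only, and stage, pool and library cannot be told apart. Any cell with PAX7 RNA entered, also cells that are not muscle.

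PAX7 is a paired box transcription factor that marks the muscle progenitors which divide, fuel the growth of the muscle masses and later give rise to satellite cells. In limbs most of these cells come from the somites. They switch on MYF5 and MYOD1 when they commit to the muscle lineage, and switch on MYOG when they leave the cell cycle and differentiate. Between E6 and E10 the chick wing passes from primary to secondary (foetal) myogenesis, while connective tissue and basement membranes form around the fibres.

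The E10 and E6 libraries held 46497874 and 15004113 UMIs. Members had a median of 1440 UMIs and 799 genes per cell at E10, against 3674.5 UMIs and 1627.5 genes at E6, so shares of cells with a UMI are also given after each cell was thinned to 700 UMIs (2070 members at E10 and 188 at E6). Of the cells kept in the 2 libraries, 32 barcodes were shared, and none of these was a member in both. A UMI of a W-linked gene was found in 0 of 2161 members at E10, which allows a share of up to 0.139% (3 counts of 2161), against 21 of 188 at E6 (11.2%). The 3 W-linked genes were left out, and stage and the sexes of the pooled embryos cannot be told apart. At least 2 of 13 muscle markers (PAX3, also listed, was not analysed) were detected in 78.9% of the members at E10 and in 89.4% at E6. Of the other cell types, at least 2 of 12 connective tissue markers were found in 1214 members at E10 (56.2%) and in 141 at E6 (75%), at least 2 neural crest markers were found in 8 members at E10 (0.37%) and in 10 at E6 (5.32%), at least 2 blood markers in 70 (3.24%) and 2 (1.06%), and at least 2 endothelial markers in 3 (0.139%) and 1 (0.532%). Barcodes with fewer than 100 UMIs served as a measure of free RNA, the RNA of broken cells that enters every droplet. If all haemoglobin RNA in the members were free RNA, its share of their UMIs would be 20.4% at E10 and 1.197% at E6. At E10 a few cells held much of it, so the share there is an upper limit. At E6 the share is an estimate that rests on only 6.89 CPM of haemoglobin RNA, and its counting error is not given.

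The members were chosen by their PAX7 and MYOG UMIs, so the levels of these genes are a description. PAX7 stood at 879 CPM at E10 and 451 CPM at E6, where CPM is the number of UMIs of a gene per 1000000 UMIs of the members. Each member holds at least 1 PAX7 UMI by the rule, and 1 UMI is more CPM at the lower depth of E10. The gap between these levels is therefore not read as a stage difference. Exactly 1 PAX7 UMI was held by 1536 members at E10 and 107 at E6, the cells just inside the threshold, and at least 2 UMIs by 28.9% and 43.1%. Just outside it, 59 PAX7+ cells at E10 (2.66%) and 9 at E6 (4.57%) were left out for MYOG. Members had a median of 1440 UMIs at E10 and 3674.5 at E6. A UMI of PAX7 or MYOG is less readily detected at the lower depth, so both limits differ in effect between the stages. Among those with 1 PAX7 UMI, 37 at E10 and 3 at E6 held 1 MYOG UMI.

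For each gene the UMIs of all members of a stage were summed and divided by all UMIs of those members, and the ratio is that of E10 over E6. Genes averaging at least 20 CPM over both stages were counted, which left 5569 genes. Of these, 193 were at least 2-fold higher at E10 (3.47% of the genes counted) and 188 were at least 2-fold lower (3.38%). The median log2 ratio over all genes counted was -0.09. For 75 of the higher and 57 of the lower genes, the whole counting interval lay past 2-fold. As a comparison within the same libraries, connective tissue marked cells were taken: cells with a UMI of PRRX1, TWIST2, PDGFRA, OSR1 or SCX and none of PAX7, MYF5, MYOD1 or MYOG (10764 cells at E10 and 2944 at E6). In these cells 247 of 5566 genes were at least 2-fold higher (4.44%) and 133 lower (2.39%), and 97 of the 193 higher and 57 of the 188 lower genes of the members passed 2-fold in the same direction there. Both cell groups come from the same 2 libraries, so this overlap is not a second measurement. For 42 of the 193 higher genes, the free RNA of E10 held the gene at a higher level than the members did. For 37 of the 188 lower genes, the same was so at E6. Without the cells of highest Scrublet score, a measure of how far a barcode resembles a pair of cells (247 members at E10 and 10 at E6), 178 of the higher and 174 of the lower genes were still past 2-fold in the same direction.

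**Figure D1:**
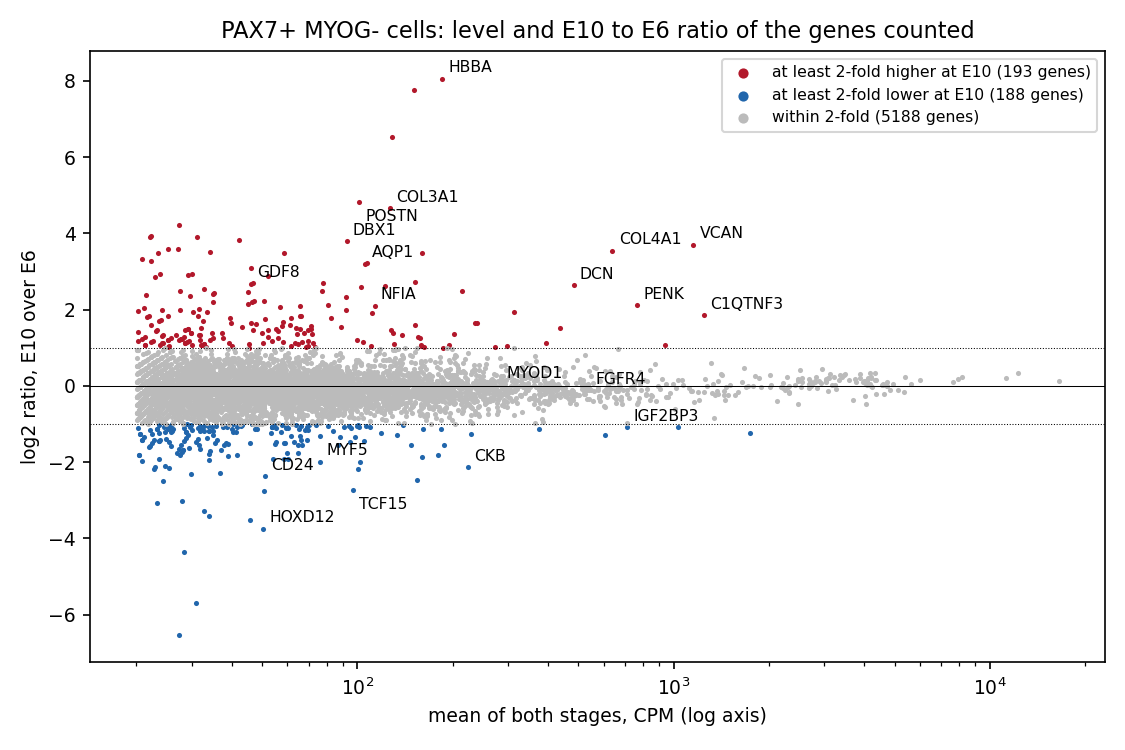
Each point is 1 of the 5569 genes counted in PAX7+ MYOG- cells, with the mean of both stages in CPM on a log axis and the log2 ratio of E10 over E6; dotted lines mark 2-fold. VCAN (3.71), COL4A1 (3.55) and C1QTNF3 (1.85) stand out at high levels above the line, while IGF2BP3 (-1.07) is the most abundant of the labelled genes below it.

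Among the factors that set up and carry the muscle programme, the early factors MYF5 and TCF15 were lower at E10, while MYOD1 differed by less than its counting error. Of 19 genes counted in this list, 2 were at least 2-fold higher and 4 at least 2-fold lower, against 3.47% higher and 3.38% lower among all genes, the shares that stand behind every list below. The median log2 ratio was -0.30 against -0.09 over all genes and 0.19 for the same list in connective tissue marked cells. TCF15 (paraxis), a bHLH factor of the somite epithelium, had 25.1 CPM at E10 (20.1 to 31.0), against 168 at E6 (140 to 201), 6.70-fold less. It was detected in 3.79% of the members at E10 and in 42.0% at E6. MYF5, the first myogenic bHLH factor of the lineage, had 30.7 CPM at E10 (25.1 to 37.1), against 121 at E6 (97.3 to 149), 3.96-fold less. The intervals of the 2 stages lay far apart for both genes. MYF6, a further member of the MYF5 family, had 64.9 CPM at E10 and 135 at E6 (log2 ratio -1.06, -1.41 to -0.70).

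MYOD1, the determination factor, had 287 CPM at E10 and 280 at E6, a log2 ratio of 0.04 (-0.18 to 0.26), which bounds a difference between these libraries to well under 2-fold in either direction. The transcriptional cofactors EYA2 (log2 ratio -0.80) and EYA1 (-0.30) were within 2-fold, as was TCF12, a partner of the myogenic bHLH proteins (0.18). By contrast, 2 genes of the list were higher at E10. MSC (musculin), a bHLH repressor of MYOD1 targets, had 34.2 CPM at E10 and 9.65 at E6 (log2 ratio 1.82, 0.74 to 3.17), and BARX2, a homeobox factor of the progenitor list, had 49.4 and 9.65 (2.35, 1.28 to 3.69). Both rest on 7 UMIs at E6. DBX1, a homeobox gene best known from interneuron progenitors of the spinal cord and not a member of these lists, had the highest ratio of a transcription factor among the genes averaging at least 50 CPM. It had 172 CPM at E10 (159 to 187) against 12.4 at E6 (5.67 to 23.6), or 590 UMIs in 425 cells against 9 UMIs in 8 cells. No member held more than 6 of its UMIs, and connective tissue marked cells had only 6.42 CPM at E10 and 0 at E6.

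Of the surface genes used to recognise progenitors, FGFR4, CDH15 and NCAM1 were near equal at both stages. FGFR4, the FGF receptor of embryonic muscle progenitors, had 520 CPM at E10 and 561 at E6 (log2 ratio -0.11, -0.27 to 0.05). CDH15 (M-cadherin) had 113 and 108 (0.07, -0.29 to 0.44), and NCAM1, an adhesion molecule, 292 and 324 (-0.15, -0.36 to 0.06). After thinning, FGFR4 was detected in 28.0% of the members at E10 (26.1 to 30.0%) and in 24.5% at E6 (18.5 to 31.3%), against 1.40% and 0% of endothelial or ectoderm marked cells, which should lack it. Of the 10 genes counted in this list, only CD82, a tetraspanin of human satellite cells, was past 2-fold, with 59.0 CPM at E10 and 11.03 at E6 (log2 ratio 2.42, 1.41 to 3.65). FGFR1 had 189 and 109 (0.79, 0.45 to 1.15) and SDC4, a syndecan, 58.7 and 33.1 (0.83, 0.21 to 1.503), both higher at E10 by less than 2-fold. C1QTNF3, a secreted protein of the C1q and TNF family listed with the muscle markers, was the most abundant gene of that list. It had 1949 CPM at E10 (1903 to 1996) and 539 at E6 (487 to 595), 3.62-fold more. Its thinned share was 67.1% at E10 (65.0 to 69.1%) and 27.1% at E6 (20.9 to 34.1%), against 1.40% and 0% in endothelial or ectoderm marked cells.

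In the mouse, NFIX is the factor that turns embryonic into foetal myoblasts, and its family members NFIA and NFIB are transcription factors active in many maturing tissues. All 3 were higher at E10. NFIA had 184 CPM at E10 (170 to 199) and 42.7 at E6 (29.0 to 60.7), 4.30-fold more, and NFIX had 73.3 (64.5 to 83.0) and 16.5 (8.55 to 28.9), 4.43-fold more. NFIB had 415 and 210, just under 2-fold (log2 ratio 0.99, 0.74 to 1.24). The family was not restricted to muscle progenitors: in connective tissue marked cells NFIA had 429 CPM at E10 and 189 at E6, NFIX 210 and 34.1, and NFIB 666 and 350, above the members at both stages. In the free RNA of E10, NFIA stood at 285 and NFIX at 84.2 CPM, also above the members, and the thinned share of NFIA, 11.6% at E10 and 1.60% at E6, lay near that of endothelial or ectoderm marked cells, 9.24% and 0%. For NFIB the thinned share was 24.7% at E10 and 11.2% at E6, against 35.0% and 11.4% in those marked cells. Before thinning, 59.0% of those marked cells held NFIB at E10. That was above the 49.4% of connective tissue marked cells and the 43.7% of the members. They do not serve as cells that lack NFIB, so its share has no background here and does not decide on expression. For NFIX the thinned share was 4.35% and 1.06%, against 2.80% and 0%. The intervals of NFIA and of NFIX overlapped those of the marked cells at both stages. At E10 they were 10.3 to 13.1% and 6.45 to 12.7% for NFIA, and 3.51 to 5.32% and 1.35 to 5.09% for NFIX. The thinned shares of NFIA and NFIX are therefore not read as expression. With the free RNA of each library subtracted from the sums, the log2 ratios were 1.92 for NFIA, 2.09 for NFIX and 1.07 for NFIB. Over the 5 genes counted of the list on embryonic to foetal myogenesis, 2 were at least 2-fold higher, none was lower and the median was 0.99. Their summed level had a log2 ratio of 0.09, and the most abundant of them, the glycolytic enzyme ENO1, stood at -0.36.

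Heterochronic genes, which time development in many animals and are known from the LIN28 and let-7 pathway, included IGF2BP3, TRIM71 and ARID3A, all lower at E10. Of 5 genes counted, 3 were at least 2-fold lower and none was higher, with a median of -1.07, against -0.90 for the same genes in connective tissue marked cells. IGF2BP3, an RNA-binding protein of embryonic cells, had 459.5 CPM at E10 (437 to 483) and 968 at E6 (898 to 1042). TRIM71, an RNA-binding ubiquitin ligase first described as LIN-41 in the worm, had 19.6 and 52.4 (log2 ratio -1.42, -2.02 to -0.81), and ARID3A, a DNA-binding protein, 19.9 and 42.7 (-1.11, -1.74 to -0.44). LIN28B, which blocks let-7 maturation, was below the level needed to be counted, with 6 UMIs at E10 and 19 at E6. That is 1.75 CPM at E10 (0.643 to 3.81) and 26.2 at E6 (15.8 to 40.9), a log2 ratio of -3.90 (-5.51 to -2.52). Its thinned share was 0.0483% at E10 and 3.72% at E6. HMGA2 (-0.29) and IGF2BP2 (-0.04) were within 2-fold. In the 1233 members at E10 and 56 at E6 that kept a PAX7 UMI after thinning, the median of the list was -0.14, the same as that of all genes. Those E6 members held only 39182 UMIs in all, so this median rests on few UMIs. It does not show whether the ratios hold at equal depth.

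**Figure D2:**
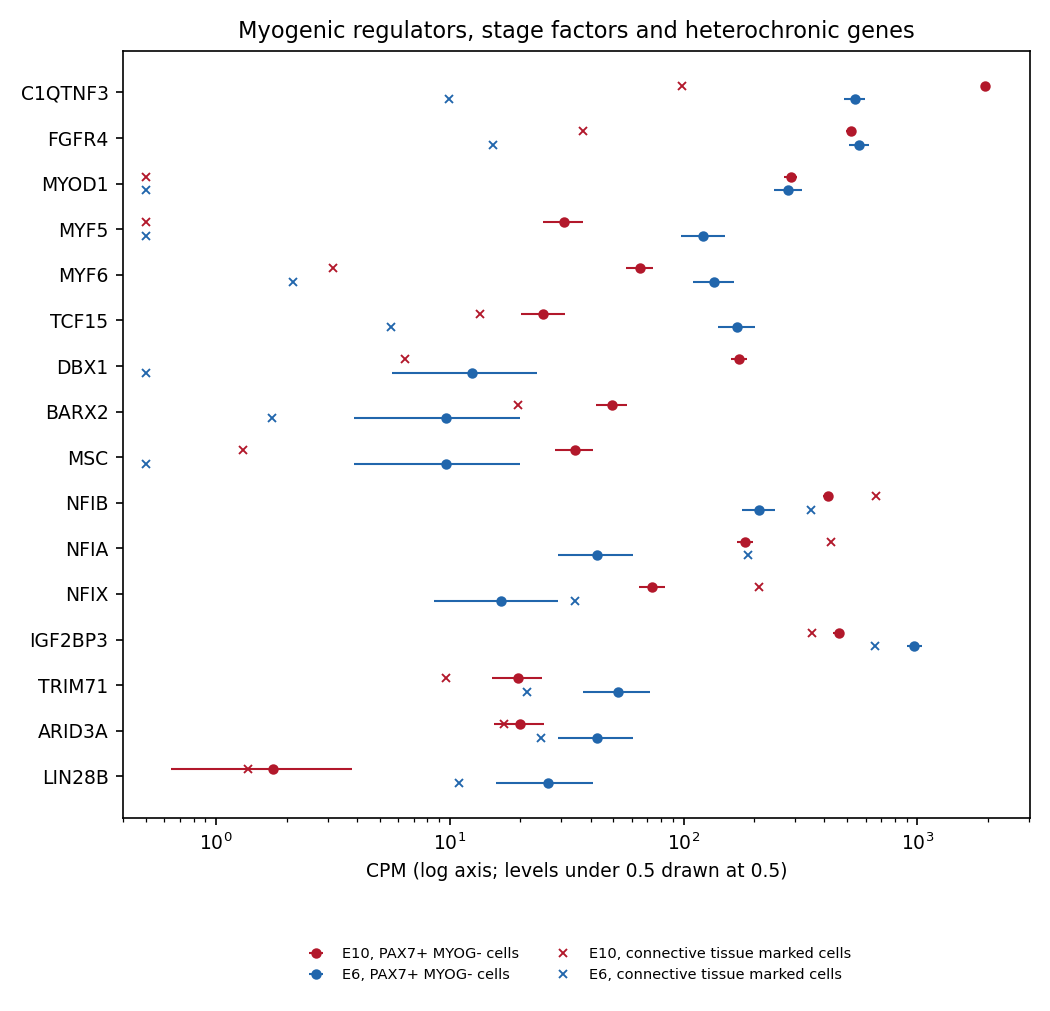
Levels in CPM on a log axis for myogenic regulators, the NFI factors and the heterochronic genes; circles are PAX7+ MYOG- cells with exact 95% counting intervals, crosses are connective tissue marked cells, red is E10 and blue is E6. MYOD1 (287 and 280) and FGFR4 (520 and 561) overlap between stages, MYF5 and TCF15 lie to the left at E10, and the crosses of NFIA, NFIB and NFIX lie to the right of the circles.

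MYF5 and MYOD1 UMIs sorted the members into 4 classes. Neither gene was detected in 70.3% of the members at E10 (68.3 to 72.2%) and in 43.6% at E6 (36.4 to 51.0%). MYOD1 without MYF5 was found in 24.99% and 25.5%, MYF5 without MYOD1 in 3.84% and 17.02%, and both together in 19 members at E10 (0.879%) and 26 at E6 (13.8%). With cells thinned to the same depth, most of the gap in the negative class was gone: 82.9% of the members at E10 (81.2 to 84.5%) and 78.7% at E6 (72.2 to 84.3%) had neither gene. The thinned share with a MYF5 UMI was 2.22% at E10 (1.63 to 2.95%) and 7.45% at E6 (4.13 to 12.2%), and that with a MYOD1 UMI 15.0% (13.5 to 16.6%) and 14.9% (10.1 to 20.8%). So MYF5 was the gene that set the classes of the 2 stages apart, and MYOD1 was found in a like share of members at both.

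**Figure D3:**
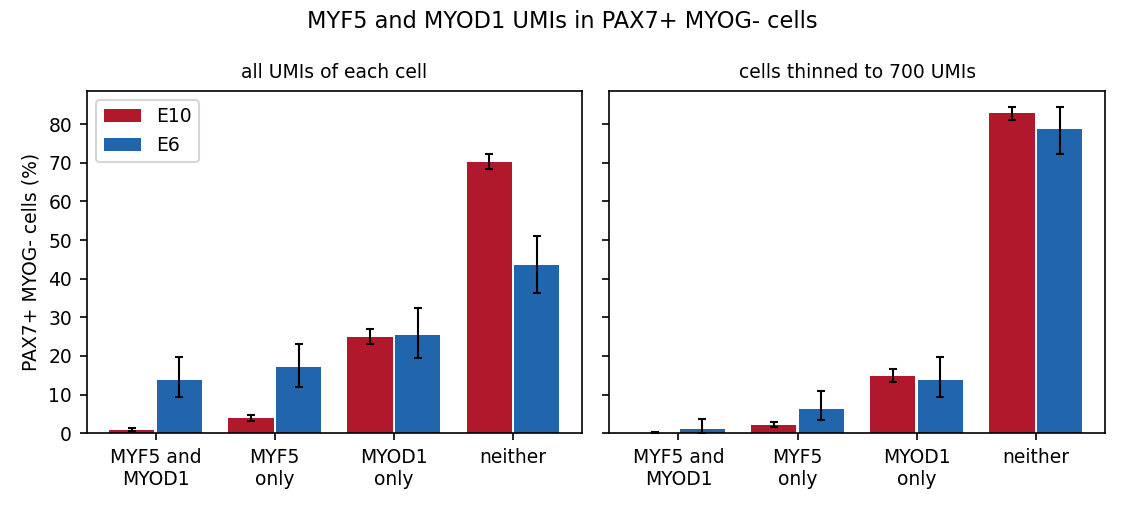
Percent of PAX7+ MYOG- cells with UMIs of both MYF5 and MYOD1, of either alone, or of neither, at E10 (red) and E6 (blue), with exact 95% binomial intervals; the left panel uses all UMIs and the right panel cells thinned to 700 UMIs. The classes with a MYF5 UMI were smaller at E10 in both panels, and the MYOD1 class was 24.99% and 25.5% on the left.

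Between members with a MYOD1 UMI (559 cells at E10, 74 at E6) and those without one (1602 and 114), differences within each stage were looked at only in chosen genes and the lists. Cells of 1 library are not replicates, and these are descriptions of the libraries. Members with a MYOD1 UMI also had more UMIs per cell, a median of 1673 against 1379 at E10 and 3794.5 against 3662.5 at E6. The part of depth in the differences was not tested. The clearest was PENK, which encodes proenkephalin, the precursor of the enkephalin peptides, and which was singled out after its values were seen. At E10 it had 2002 CPM in members with a MYOD1 UMI (1916 to 2092) and 936 in those without (898 to 976). At E6 the values were 579 (496 to 672) and 84.5 (59.2 to 117). PENK was higher in the MYOD1 class at both stages and higher at E10 in both classes. Over all members it had 1248 CPM at E10 and 288 at E6 (log2 ratio 2.11, 1.91 to 2.32), in 52.9% and 27.7% of the cells, and the free RNA held it at 1102 and 190 CPM.

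ID2, an inhibitor of bHLH factors and target of BMP signalling, had 291 CPM with and 172 without a MYOD1 UMI at E10, and 448 and 274 at E6. FGFR4 had 632 and 474 at E10, and 639 and 507 at E6, where the intervals overlapped. HEYL, an effector of the Notch pathway, ran the other way, with 56.0 and 116 at E10, and 36.8 and 51.6 at E6, also with overlapping intervals. MKI67, a proliferation marker, had 434 and 320 at E10 but 221 and 206 at E6, again with overlapping intervals. The summed G2M list was higher with a MYOD1 UMI at both stages, 9433 and 7372 at E10, and 7572 and 6974 at E6. The summed S phase list was higher with a MYOD1 UMI at E10, 4669 and 4316. At E6 it was lower, 4000 and 4385, with overlapping intervals. VCAN was at nearly the same level in the classes of each stage, 2185 and 2130 at E10 and 167 and 162 at E6. C1QTNF3 was slightly lower with a MYOD1 UMI, 1856 and 1987 at E10 and 455 and 598 at E6, with overlapping intervals at both stages. The stage ratio of these matrix and muscle genes was therefore present in both classes. Members with a MYOD1 UMI also held less of the connective tissue list at E10, 2301 CPM against 3659 without one. The same was so for the interstitial matrix list, 5622 against 7467, and the blood list, 443 against 1279. Single cells weigh heavily in the blood list, as 1 member held 419 of the 1262 HBBA UMIs at E10. The part of the RNAs of these lists in the split was not tested.

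**Figure D4:**
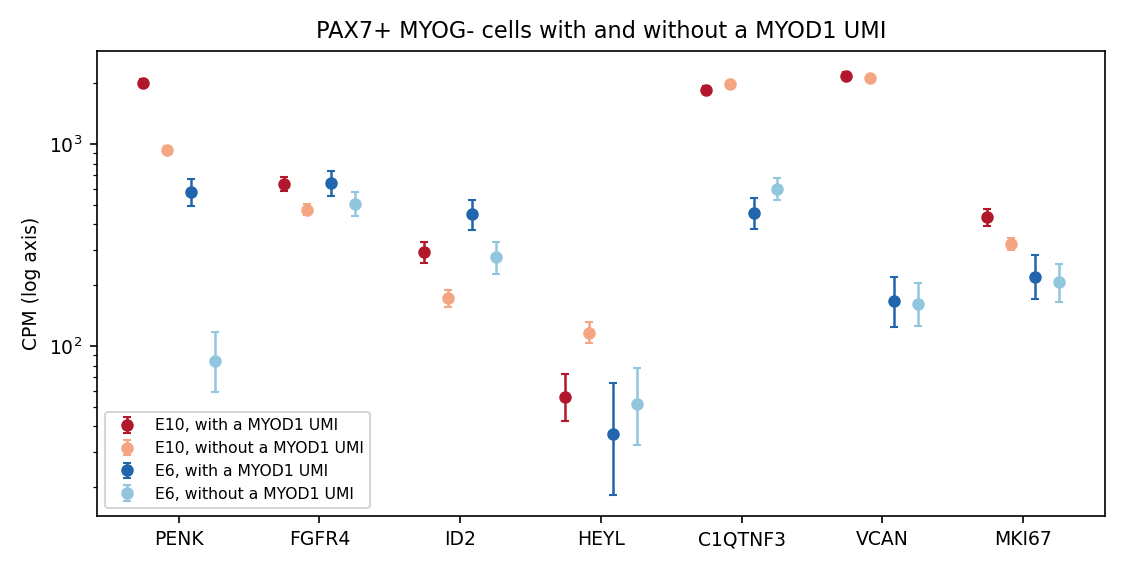
Levels in CPM on a log axis of 7 genes in PAX7+ MYOG- cells with and without a MYOD1 UMI, at E10 (reds) and E6 (blues), with exact 95% counting intervals. PENK separates the MYOD1 classes at both stages (2002 and 936 at E10, 579 and 84.5 at E6), while VCAN separates the stages but not the classes.

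Matrix genes were among the most abundant of the genes that were higher at E10. Of the 20 genes counted among basement membrane components and integrins, 6 were at least 2-fold higher and 1 was lower, with a median of 0.59 against -0.09 over all genes and 0.71 in connective tissue marked cells. COL4A1, a chain of the collagen IV network of basement membranes, had 1180 CPM at E10 (1144 to 1217) and 101 at E6 (78.9 to 127), 11.7-fold more. It was detected in 75.1% and 24.5% of the members. Its partner chain COL4A2 had 131 and 23.4 (log2 ratio 2.49, 1.79 to 3.28). In connective tissue marked cells COL4A1 had 294 CPM at E10 and 67.2 at E6, so the members held the higher level at both stages, and the free RNA of E10 held 210. The laminin chains LAMB1 (228 and 75.8 CPM; log2 ratio 1.59, 1.19 to 2.01) and LAMA5 (57.3 and 12.4; 2.21, 1.25 to 3.36) and agrin (AGRN, 188 and 71.7; 1.39, 0.98 to 1.83), the heparan sulphate proteoglycan that clusters acetylcholine receptors, were also higher. ITGA4, an integrin chain for fibronectin and VCAM1, had 68.9 and 31.7 (1.12, 0.50 to 1.81). ITGB5 was the one below 2-fold, with 16.4 and 35.8 (-1.13, -1.83 to -0.40). The integrin beta chain ITGB1 (0.45), dystrophin (DMD, 0.49) and LAMA4 (0.90) were within 2-fold.

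Of 24 interstitial matrix genes counted, 9 were at least 2-fold higher and 2 lower, with a median of 0.62 in the members and 1.39 in connective tissue marked cells. VCAN (versican), a large hyaluronan-binding proteoglycan, had 2146 CPM at E10 (2097 to 2196) and 164 at E6 (136 to 196), 13.1-fold more. It was detected in 84.6% of the members at E10 and in 33.0% at E6, with no more than 26 UMIs in any cell. Connective tissue marked cells had 1200 and 444 CPM (log2 ratio 1.43), so the order of the cell groups differed between the stages: the members held more VCAN at E10 and less at E6. MFAP2, a microfibril protein, had 79.7 and 280 (-1.81, -2.08 to -1.54), and THBS1, a thrombospondin, 13.1 and 41.4 (-1.65, -2.35 to -0.94).

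The fibrillar collagens and their partners did not show VCAN's pattern. POSTN (periostin) had 196 CPM at E10 and 6.89 at E6, and COL3A1 had 244 and 9.65, log2 ratios of 4.83 and 4.66. In connective tissue marked cells they had 2419 and 64.7, and 2465 and 52.7, and the free RNA of E10 held 708 and 912, more than the members. COL3A1 was detected after thinning in 8.74% of the members at E10, below the 26.1% of endothelial or ectoderm marked cells, so this share is not read as expression. With free RNA subtracted, the log2 ratios were 2.99 for COL3A1 and 3.38 for POSTN. DCN (decorin), a small proteoglycan, had 832 and 134 (2.64, 2.34 to 2.94), with 1144 in the free RNA of E10 and a log2 ratio of 2.53 after its subtraction. COL1A1 had 1586 and 1047 (0.60), against 16159 and 1963 in connective tissue marked cells. UMIs of any of the 5 connective tissue genes were found in 9.57% of the thinned members at E10 and 13.3% at E6 (8.79 to 19.0%). In thinned endothelial or ectoderm marked cells the shares were 10.1% and 12.9%. At E6 the latter was 9 of 70 cells (6.05 to 23.0%). The shares of the cell groups overlapped at both stages, and whether the members express these genes was not tested. PRRX1, the limb mesenchyme homeobox gene, had 114 and 228 (-0.998), and TWIST1, a bHLH factor of mesenchyme, 96.4 and 280 (-1.54).

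**Figure D5:**
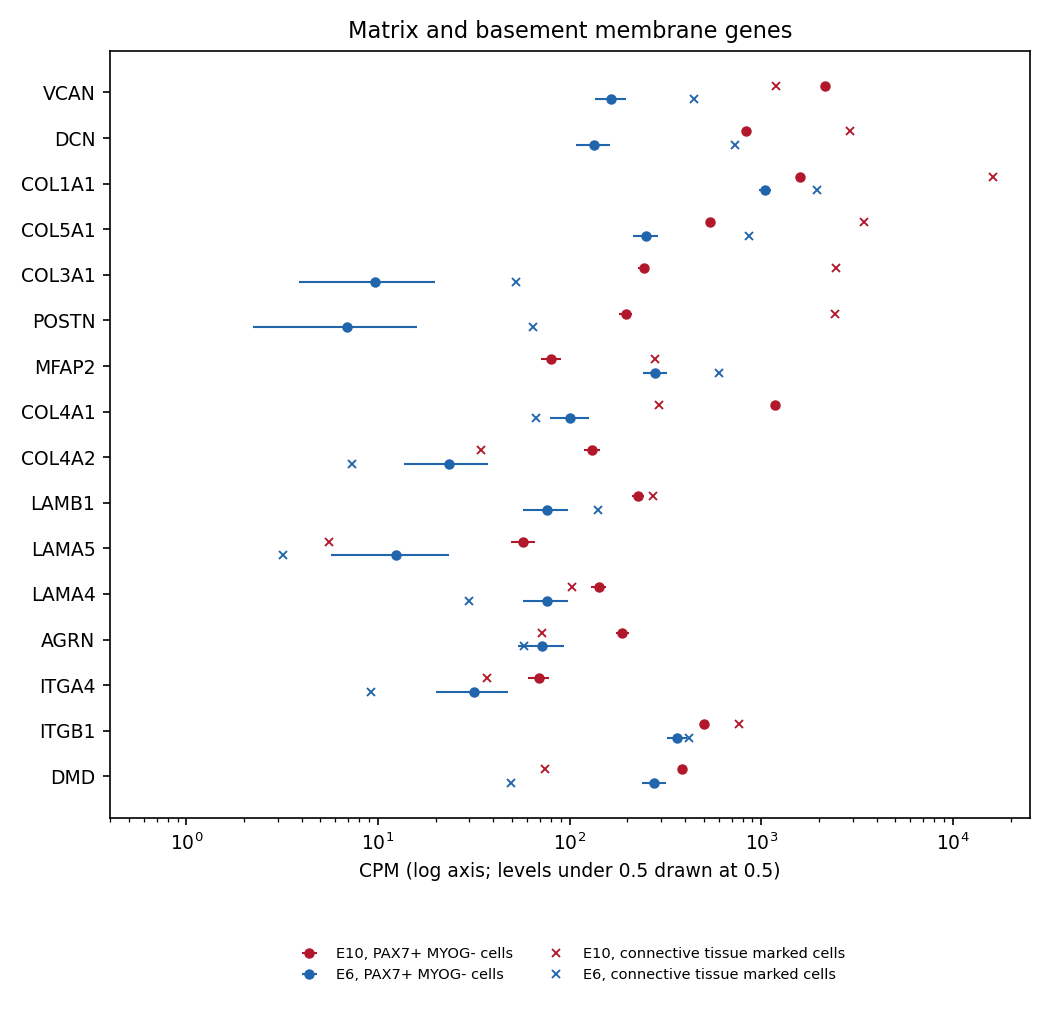
Levels in CPM on a log axis of interstitial matrix genes (VCAN to MFAP2) and of basement membrane and cell surface genes (COL4A1 to DMD); circles are PAX7+ MYOG- cells with exact 95% counting intervals, crosses are connective tissue marked cells, red is E10 and blue is E6. The E10 circle lies right of the E10 cross for VCAN (2146 and 1200) and COL4A1 (1180 and 294), and left of it for POSTN (196 and 2419).

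In the TGFB and myostatin pathway, 1 of 11 genes counted was at least 2-fold higher and 2 were lower, with a median of 0.03. The higher one was GDF8, which encodes myostatin, the secreted brake on muscle growth, with 79.7 CPM at E10 (70.6 to 89.8) and 12.4 at E6 (5.67 to 23.6), 6.43-fold more. Connective tissue marked cells had 7.21 and 1.2 CPM. ACVR2A, a receptor for activins and myostatin, had 78.0 and 189 (log2 ratio -1.28, -1.58 to -0.97). TGIF1, a corepressor of SMAD proteins, had 19.9 and 45.5 (-1.20, -1.82 to -0.55). The ligand TGFB2 had 263 and 510, just under 2-fold (-0.96, -1.13 to -0.78), with the opposite direction in connective tissue marked cells, 552 and 217. The ligand myostatin was thus higher at E10 and its receptor gene ACVR2A lower. Other receptor genes of the list were within 2-fold: ACVR2B had 73.6 and 110 (-0.58, -0.95 to -0.20), and TGFBR1 stood at 0.07.

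The ID genes, inhibitors of bHLH factors and targets of BMP signalling, were lower at E10, of which only ID4 passed 2-fold. ID1 had 163 CPM at E10 and 265 at E6 (log2 ratio -0.70, -0.94 to -0.46), ID2 207 and 346 (-0.74, -0.95 to -0.53) and ID3 269 and 495 (-0.88, -1.06 to -0.70). ID4 had 20.2 and 57.9 (-1.52, -2.10 to -0.93), and without neural crest cells its log2 ratio was -0.94, under 2-fold. In connective tissue marked cells ID1 to ID3 had log2 ratios of -1.002, -0.60 and -0.45, so these 3 were lower at E10 in both cell groups, while ID4 ran the other way there, with 66.9 and 45.1 CPM. Over the 10 BMP pathway genes counted, 1 was lower and none higher, with a median of -0.27 in the members and -0.30 in connective tissue marked cells. The receptor BMPR1B (0.35) and the signal transducer SMAD1 (0.68) were within 2-fold.

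Notch signalling keeps muscle progenitors undifferentiated. Of 10 genes counted, 2 were higher and 2 lower, with a median of 0.16. The receptor NOTCH2 had 365 CPM at E10 and 179 at E6 (log2 ratio 1.03, 0.76 to 1.298), while NOTCH1 had 176 and 161 (0.13). The target HEYL had 98.7 and 45.5 (1.12, 0.60 to 1.68), but the target HES1 had 15.2 and 41.4 (-1.45, -2.12 to -0.75) and LFNG, the glycosyltransferase that modifies Notch receptors, 16.9 and 60.7 (-1.84, -2.43 to -1.24). HEYL and HES1 were therefore split in direction, and HES4 was near equal (0.03). In connective tissue marked cells HEYL (3.38) and HES1 (-2.05) ran in the same directions as in the members, while LFNG ran the other way (2.08). The list's median there was 0.80. For HEYL the lower bound of the interval was under 2-fold, and its thinned shares, 7.63% at E10 (6.53 to 8.86%) and 4.79% at E6 (2.21 to 8.89%), overlapped.

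In the WNT pathway 2 of 10 genes counted were higher and 1 lower, with a median of -0.11. SFRP2, a secreted WNT modulator, had 364 CPM at E10 and 64.8 at E6 (log2 ratio 2.49, 2.07 to 2.94), with 553 and 163 in connective tissue marked cells and 359 in the free RNA of E10. The receptor FZD4 had 92.02 and 30.3 (1.60, 0.98 to 2.30), and in connective tissue marked cells 38.1 and 46.3 (-0.28). The secreted inhibitor WIF1 had 4.97 and 41.4 (-3.06, -4.01 to -2.15), with a log2 ratio of -2.95 in connective tissue marked cells. No counted gene of the FGF list (7 counted; FGF9, given below, was not on it) or of the IGF list (6 counted) was past 2-fold, with medians of -0.11 and -0.35, and the receptor IGF1R had 129 and 239 (-0.88, -1.14 to -0.62).

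Of 12 migration and guidance genes counted, 1 was higher and 3 were lower, with a median of -0.60 in the members and 0.28 in connective tissue marked cells. All 3 lower genes were SLIT ligands, the repellents that bind ROBO receptors: SLIT1 had 18.4 CPM at E10 and 64.8 at E6 (log2 ratio -1.82, -2.38 to -1.24), SLIT2 had 38.0 and 77.2 (-1.02, -1.49 to -0.55) and SLIT3 had 15.8 and 34.5 (-1.13, -1.84 to -0.38). SLIT1 ran the other way in connective tissue marked cells, with 94.1 and 9.87. NRP1, a receptor for semaphorins and VEGF, had 49.95 and 4.14 (3.59, 2.02 to 5.89), on 3 UMIs at E6. EPHA3, an ephrin receptor, lay just under 2-fold, with 44.1 and 22.1 (0.9996, 0.25 to 1.84). The adhesion receptor BOC, a cofactor of hedgehog and myogenic signalling, had 80.3 and 35.8 (1.16, 0.58 to 1.80), the one gene past 2-fold of 12 counted among cadherins and fusion genes. CD44, the hyaluronan receptor, had 92.02 and 12.4 (2.89, 1.95 to 4.03). The members left after thinning gave 0.24, but at E6 they held only 39182 UMIs in all. A gene with 0 UMIs was set to 3, so 0.24 does not show whether the ratio holds at equal depth.

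Contractile genes lay on both sides, 4 of 13 counted at least 2-fold higher and 4 lower, with a median of -0.01. CKB, the brain form of creatine kinase, had 83.5 CPM at E10 and 364 at E6 (log2 ratio -2.12, -2.37 to -1.88), in 9.44% and 49.5% of the members. The troponin chains TNNC2 (75.1 and 219; -1.55) and TNNI1 (56.4 and 153; -1.44) and RAPSN (17.5 and 56.5; -1.69), which anchors acetylcholine receptors, were also lower. ACTC1 (98.2 and 37.2; 1.40), ACTA1 (33.6 and 12.4; 1.44), TNNC1 (40.3 and 5.52; 2.87) and the calcium channel RYR3 (42.9 and 15.2; 1.501) were higher. The free RNA of E10 held 1834 CPM of ACTC1, 436 of ACTA1 and 588 of TNNC1, and connective tissue marked cells had 96.2, 37.4 and 36.1, close to the members. At a free RNA share of 20.4% the subtraction would remove more ACTC1 and TNNC1 than the members held at E10, so it gives no ratio for these genes. The same was so for the lower genes CKB, TNNC2 and TNNI1. CKB stood at 465 CPM in the free RNA of E10, above the members. RAPSN had a log2 ratio of -1.61 after the subtraction. RYR3 was at 5.86 in the free RNA and 1.298 in connective tissue marked cells at E10, far below the members.

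HOXD12, HOXD13 and TBX5, which map position in the limb, were lower at E10. Of 11 HOXA and HOXD genes counted, 2 were at least 2-fold lower and none higher, with a median of -0.61 in the members and -0.75 in connective tissue marked cells. HOXD12 had 7.01 CPM at E10 (4.49 to 10.4) and 93.8 at E6 (72.8 to 119), and HOXD13, a gene of the digit-forming region, 2.63 (1.202 to 4.99) and 53.8 (38.2 to 73.5). These 2 had 102 and 533, and 47.7 and 307, in connective tissue marked cells. The free RNA of E6 held 401 and 208, above the members of that stage, at a free RNA share estimated at 1.197%. TBX5, the forelimb identity factor, had 13.1 and 88.2 (log2 ratio -2.75), also with 151 in the free RNA of E6. Without the members that held a UMI of the 5 connective tissue genes, its log2 ratio was 0.25. HOXA11, a zeugopod gene that muscle precursors are known to express, had 94.6 and 163 (-0.78, -1.09 to -0.47), in the members above the 77.1 and 130 of connective tissue marked cells.

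Division genes were near equal by summed level. None of 32 S phase genes counted and 1 of 41 G2M genes (NEK2) was past 2-fold, with medians of 0.15 and 0.14, in connective tissue marked cells -0.19 and 0.03. MKI67 had 353 CPM at E10 and 212 at E6 (log2 ratio 0.73, 0.49 to 0.99), with thinned shares of 18.9% (17.3 to 20.7%) and 10.6% (6.62 to 15.95%). TOP2A, a topoisomerase of dividing cells, had 660 and 614 (0.11, -0.04 to 0.26), with thinned shares of 30.9% and 20.7%, against 15.97% and 15.7% of endothelial or ectoderm marked cells. Of 15 glycolysis enzymes counted, 1 was lower: PKM, pyruvate kinase, had 236 and 513 (-1.12, -1.30 to -0.94). The list's median was -0.36 in the members and -0.04 in connective tissue marked cells. The chaperone gene HSP90AB1 had 666 and 1394 (-1.07), with a log2 ratio of -0.997 in connective tissue marked cells. No gene of the 65 ribosomal protein genes or 30 proteasome subunits counted was past 2-fold.

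The most extreme genes averaging at least 50 CPM also included several with no link to these lists. VLDLR, a receptor for lipoproteins and reelin, had 193 CPM at E10 and 20.7 at E6 (log2 ratio 3.22, 2.49 to 4.07), and AQP1, a water channel, 191 and 20.7 (3.21, 2.48 to 4.06). In connective tissue marked cells the log2 ratio was 0.83 for VLDLR and -0.01 for AQP1. MAP1LC3C, an autophagy protein, had 108 and 9.65 (3.48, 2.42 to 4.80), with 0.31 in connective tissue marked cells. The members left after thinning gave 0.70, on 39182 UMIs in all at E6 and with 0 UMIs set to 3. That value does not show whether the ratio holds at equal depth. The 3 most extreme genes of all were haemoglobin genes, HBBA, HBA1 and HBM, with 369, 301 and 255 CPM at E10 and 1, 1 and 2 UMIs in all members at E6. They were not spread over the members: HBBA was found in 110 cells at E10 with a median of 1 UMI, and 1 cell held 419 of its 1262 UMIs. The free RNA of E10 held HBBA at 1812 CPM.

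On the other side, FGF9, a ligand of the FGF family, had 24.5 CPM at E10 and 92.4 at E6 (log2 ratio -1.91, -2.39 to -1.43), with 4.33 and 4.67 in connective tissue marked cells. CYP1B1, a cytochrome P450 enzyme, had 40.9 and 163 (-1.99, -2.36 to -1.63) and ran the other way in connective tissue marked cells, 83.8 and 46.9. SNAI1, a repressor of epithelial genes, had 22.5 and 85.5 (-1.93), CD24, a surface glycoprotein, 16.7 and 85.5 (-2.36), GNG10, a G protein subunit, 25.4 and 95.1 (-1.90) and AKR1D1, a steroid reductase, 68.6 and 251 (-1.87). The free RNA of E6 held AKR1D1 at 1066, CD24 at 100.1, SNAI1 at 100.4 and GNG10 at 104 CPM, above the members of that stage. The share of free RNA there was estimated at 1.197% of the UMIs. With the free RNA of each library subtracted, the log2 ratios were -3.48 for AKR1D1, -2.60 for CD24, -2.07 for SNAI1 and -4.51 for GNG10. The free RNA of E10 held AKR1D1 at 252 and GNG10 at 108 CPM, also above the members. Their shifts rest mainly on the upper-limit share of 20.4% assumed at E10, and are not read as a larger stage difference. EDNRB2, an endothelin receptor of avian melanoblasts, had 36.5 and 164 (-2.17), but 108 of its 119 UMIs at E6 came from the 20 members with at least 2 UMIs of the neural crest list. At E10 only 16 of its 125 UMIs came from the 30 such members, and all 125 sat in 26 cells. Without the neural crest marked members of both stages its log2 ratio was 0.90, on the other side of 0. As this filter took most of its UMIs at E6 and few at E10, 0.90 is not read as a higher level at E10. ANKRD1, singled out after its values were seen, rests on 44 UMIs at E6, of which 43 sat in 1 cell.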

How the data were processed

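Droplet libraries (10x Chromium, 3' kit) of chicken forelimb cells were analysed, 1 library per stage. The deposited values are counts of UMIs per gene and barcode, made by the authors with Cell Ranger (3.0.2 in the matrix headers) and STAR on GRCg6a, per the labels; the matrices hold 24356 genes and all barcodes. Cells had at least 450 UMIs and at most 16% mitochondrial UMIs at E10, and at least 700 UMIs and at most 17% at E6. At E10 this kept 25507 cells although the labels give 5000 cells loaded. The study removed doublets, which here stay in except in 1 alternative. Members' UMIs were summed per stage and divided by their total (3423270 at E10, 725255 at E6). Intervals are exact Poisson for levels, conditional binomial for ratios and Clopper-Pearson for shares, at 95%. A stage with 0 UMIs was set to a floor of 3, which concerned 4 genes in the main result. Genes with 1 or 2 UMIs kept their ratio. With 1 library per stage no test was run. Genes averaging at least 20 CPM were counted, and past 2-fold called. Named were the 12 highest and 12 lowest ratios among 2885 genes with a symbol and at least 50 CPM, and genes of the lists, some of which are not reported here; PENK and ANKRD1 were added after their values were seen. The members and lists were chosen with earlier results of these data known. Symbols come from the files, and for 19 IDs from the study's marker tables; PAX3 was not analysed here. Endothelial or ectoderm marked cells (at least 2 markers of either list, no PAX7) numbered 373 at E10 (median 1582 UMIs) and 70 at E6 (2537). The calculation was tested on simulated counts. Python 3.11.15, scipy 1.17.1 and scanpy 1.11.5 were used.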

Additional observations from a re-analysis of the deposited data

How the results depend on the processing

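Over 17 other settings, the median of the heterochronic genes ran between -1.23 and -0.14 (-0.14 after thinning, the same as all genes, but on few UMIs at E6). Sign changes were counted only for genes past 2-fold in the main result, so smaller ratios that crossed 0 are not included. Among 93 genes followed with 1562 values, 6 such values changed sign. Those of ACTC1 (-5.31) and TNNC1 (-2.57) with free RNA subtracted are no ratios, since the assumed share of 20.4% removes more than the members held at E10. The others were ACTC1 at -0.79 on the log2 scale with MYOG positive cells kept, EDNRB2 0.90 without neural crest cells, TBX5 0.25 without cells with a connective tissue UMI, and MYF5 0.62 in members chosen for a MYF5 UMI. Of 68 such genes past 2-fold, 30 were under it in at least 1 setting, among them NOTCH2, MYF6, IGF2BP3, HEYL and ITGA4, which lie near 2-fold. After thinning, POSTN was at 0.93, MAP1LC3C at 0.70, CD44 at 0.24, CD24 at -0.37, FZD4 at 0.40, TRIM71 and ARID3A at -0.07 and BARX2 at 0.998. These values rest on few or no UMIs at E6, with 39182 UMIs in all and 0 UMIs set to 3. They do not show whether the ratios hold at equal depth. HOXD13 was at -0.96 in members with a MYF5 UMI, AKR1D1 at -0.87 without cells with a connective tissue UMI and ANKRD1 at -0.39 without those with a W-linked UMI. Against 193 higher and 188 lower genes, the counts were 817 and 1074 with any gene with a UMI counted, 487 and 620 in members with a MYF5 UMI, 88 and 75 at a mean of 50 CPM, and 420 and 937 after thinning to 700 UMIs, where the members held 863100 and 39182 UMIs at E10 and E6. With at least 2 PAX7 UMIs, 356 genes were lower. Centred on the median of all genes, 227 were higher and 144 lower, a share of higher genes of 61.2% against 50.7%, and after thinning it was 31.0%. Of the 193 higher and 188 lower genes, 63 and 102 were still past 2-fold in the same direction after thinning, and 151 to 193 and 126 to 188 in the other settings, in each case whatever the mean level of the gene. The 63 and 102 carry the same limit of few UMIs at E6.

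The share of members at E10 was 6.28% with MYOD1 positive cells left out, 2.45% with at least 2 PAX7 UMIs, 0.3999% with a MYF5 UMI, 11.5% in cells of at least 1000 UMIs, 7.01% without cells with a connective tissue UMI, 9.61% without the highest Scrublet scores and 5.71% after thinning. At E6 it was 2.90%, 2.06%, 1.48%, 2.72% and 1.43% with MYOD1 positive cells left out, at least 2 PAX7 UMIs, a MYF5 UMI, no connective tissue UMI and thinning. An alternative of members with a W-linked UMI only was not run, since E10 had 0. No paired analysis was possible because each stage is 1 library, and for the same reason no replicate could be left out. Genes with few UMIs at E6, where the members hold 725255 UMIs, have wide intervals (NRP1 with 3 UMIs, BARX2 and MSC with 7).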
